A study of Mus musculus with 4 samples.

Results

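The genes described here encode the ligands and receptors of interleukin-1 (IL-1) and tumour necrosis factor (TNF), and they were chosen by name: *Il1a*, *Il1b*, *Il1rn*, *Il1r1*, *Il1r2*, *Tnf*, *Tnfrsf1a*, *Tnfrsf1b* and *Tnfrsf12a*. They are 9 of the 33456 genes listed in the deposited matrices, and all 9 are among the 19095 genes with at least 1 UMI (unique molecular identifier, the tag that marks 1 captured RNA molecule) in the cells kept for analysis. The study measured RNA in single cells of mouse dorsal root ganglia (DRG), which hold the cell bodies of sensory neurons with their glia, vessels, connective tissue and immune cells, and asked how the cells around the neurons respond to nerve injury. It comprised 2 control libraries from uninjured ganglia and 2 injury libraries from ganglia taken 3 days after sciatic nerve crush, all from C57BL/6 mice of 8 to 12 weeks, females according to the methods. The labels name the L4 ganglion, whereas the methods name L4 and L5. Cells of several mice were pooled per library, so an animal cannot be traced within a library, and the tissue was dissociated with papain and collagenase and sorted for live cells before droplet capture (10x Genomics, 3' tags). Libraries are called control 1, control 2, injury 1 and injury 2, and the number 1 was given here to the library of each condition whose label has none.

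IL-1 and TNF are early signals of tissue damage. IL-1α and IL-1β act on the same receptor, IL1R1, which signals through MyD88 to NF-κB. The antagonist IL1RN occupies that receptor without signalling, and IL1R2 is a decoy that binds IL-1 and passes nothing on. TNF acts on TNFR1, which most tissues make, and on TNFR2, which is mainly a receptor of leukocytes and endothelium, whereas *Tnfrsf12a* encodes Fn14, the receptor of the TNF relative TWEAK. In sensory ganglia both ligands are known as products of macrophages and other myeloid cells, and their receptors on neurons are known to raise excitability in pain models.

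*Il1a*, *Il1b* and *Il1rn* lie on chromosome 2 (GRCm38, chr2:129299610-129309972, chr2:129364570-129371139 and chr2:24336853-24351494), and the receptor genes *Il1r1* and *Il1r2* are neighbours on chromosome 1 (chr1:40225080-40317257 and chr1:40074079-40125231). *Tnf* (chr17:35199381-35202007) and *Tnfrsf12a* (chr17:23675445-23677468) are on chromosome 17, *Tnfrsf1a* is on chromosome 6 (chr6:125349362-125362484) and *Tnfrsf1b* on chromosome 4 (chr4:145213463-145246870). In this annotation *Il1b* overlaps *Il1bos*, *Il1a* overlaps *Gm14023*, *Il1r1* overlaps *Gm38070*, and *Il1r2* overlaps *Gm16894* and *Gm37347*. The strands of the overlapping genes are not given here, and whether the overlaps affected the UMI counts was not tested. The promoters of the 3 pro-inflammatory ligand genes are shown because each holds the TATA box sequence TATAAA close to its start. None of the RefSeq promoters of *Il1rn* or of the receptor genes has TATAAA in this window. Other forms of the TATA box were not searched. They are the 250 bases before the annotated start (RefSeq, GRCm38.p6), read on the minus strand at chr2:129309973-129310222 for *Il1a*, chr2:129371140-129371389 for *Il1b* and chr17:35202008-35202257 for *Tnf*. Capitals mark TATAAA and, in *Il1a*, the AP-1 motif TGANTCA.
Il1a: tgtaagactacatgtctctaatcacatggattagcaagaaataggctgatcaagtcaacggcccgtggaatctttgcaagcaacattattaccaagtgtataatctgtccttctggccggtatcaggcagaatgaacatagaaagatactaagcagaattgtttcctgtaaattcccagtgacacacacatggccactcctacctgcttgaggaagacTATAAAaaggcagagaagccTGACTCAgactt
Il1b: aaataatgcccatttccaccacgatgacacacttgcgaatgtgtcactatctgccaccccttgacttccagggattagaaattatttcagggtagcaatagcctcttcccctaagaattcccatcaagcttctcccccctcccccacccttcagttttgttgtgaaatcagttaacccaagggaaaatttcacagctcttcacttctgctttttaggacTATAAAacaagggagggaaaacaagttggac
Tnf: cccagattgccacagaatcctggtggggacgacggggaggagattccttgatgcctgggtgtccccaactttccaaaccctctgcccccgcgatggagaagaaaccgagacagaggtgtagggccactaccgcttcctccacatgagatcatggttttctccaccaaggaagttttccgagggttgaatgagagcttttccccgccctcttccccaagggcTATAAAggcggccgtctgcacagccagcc
The TATAAA match began 32, 31 and 29 bases before the start in *Il1a*, *Il1b* and *Tnf*. On either strand, 12.4% of all 32851 RefSeq promoter windows of this length hold TATAAA, and 6.75% hold TGANTCA, which was also found in 1 of the *Il1rn* promoters. The κB consensus, the NF-κB motif, was present in 7.25% of windows, and among these genes it was found in 1 of the *Il1r1* promoters. These matches describe the letters of the window and are not evidence of binding.

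The libraries held 1384, 1788, 2509 and 1294 barcodes (control 1, control 2, injury 1 and injury 2, the order of every series of 4 values below), of which 1301, 1341, 2377 and 1076 passed the filters on UMIs, genes and mitochondrial share. These cells carried 4293865, 6174329, 9139674 and 5812819 UMIs, with medians of 2775, 4054, 3110 and 4845 per cell, so libraries 1 of both conditions were shallower per cell than libraries 2. Of the 6095 cells, 5120 were gated to 1 of 15 types by marker genes and are called macrophage-like, fibroblast-like and so on, and 975 stayed ungated. Macrophage-like cells made up 18.8%, 5.59%, 20.2% and 18.5% of the cells. Outside the gate markers, their leading genes included *Ccl8* and *Fcrls*. Those of the fibroblast-like cells included *Angptl7* and *Sfrp4*, and those of the satellite glia-like cells *Rlbp1* and *Acsbg1*. Monocyte-like and neutrophil-like cells were led by granule genes of immature cells (*Mpo* and *Elane*, and *Ltf*, *Ngp* and *Camp*). Of these, *Ltf*, *Ngp* and *Camp* are themselves gate markers. Among the 6975 barcodes, 20 sequences occurred in more than 1 library. Levels are given as CPM, a gene's UMIs scaled to a common total of UMIs in the summed cells. CPM from 3' tags are compared here between cell types and libraries within a gene, never between genes.

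The ligand genes were found almost wholly in myeloid cells, and the receptor genes in several lineages. Macrophage-like cells held 98.3% of the 118 *Il1a* UMIs, 68.1% of the 7852 *Il1b* UMIs and 93.1% of the 802 *Tnf* UMIs. A further 7.26% of the *Il1b* UMIs were in dendritic cell-like cells, 4.83% in monocyte-like cells and 15.2% in ungated barcodes, and of the 1193 UMIs in ungated barcodes 1149 lay in 207 barcodes with at least 3 myeloid markers. *Il1rn* (479 UMIs) was divided between macrophage-like (41.8%) and fibroblast-like cells (37.2%). Fibroblast-like cells held 61.6% of the 211 *Il1r1* UMIs, and neutrophil-like cells, 92 in number, held 62.9% of the 232 *Il1r2* UMIs. *Tnfrsf1a* (2440 UMIs) was spread over fibroblast-like (33.0%), endothelial-like (18.8%) and macrophage-like cells (17.8%), *Tnfrsf1b* (537 UMIs) was mainly macrophage-like (62.8%), and *Tnfrsf12a* (909 UMIs) was in fibroblast-like (27.8%), satellite glia-like (27.1%) and ungated cells (22.7%). These shares depend on how many cells of a type were captured as well as on their level.

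**Figure D1:**
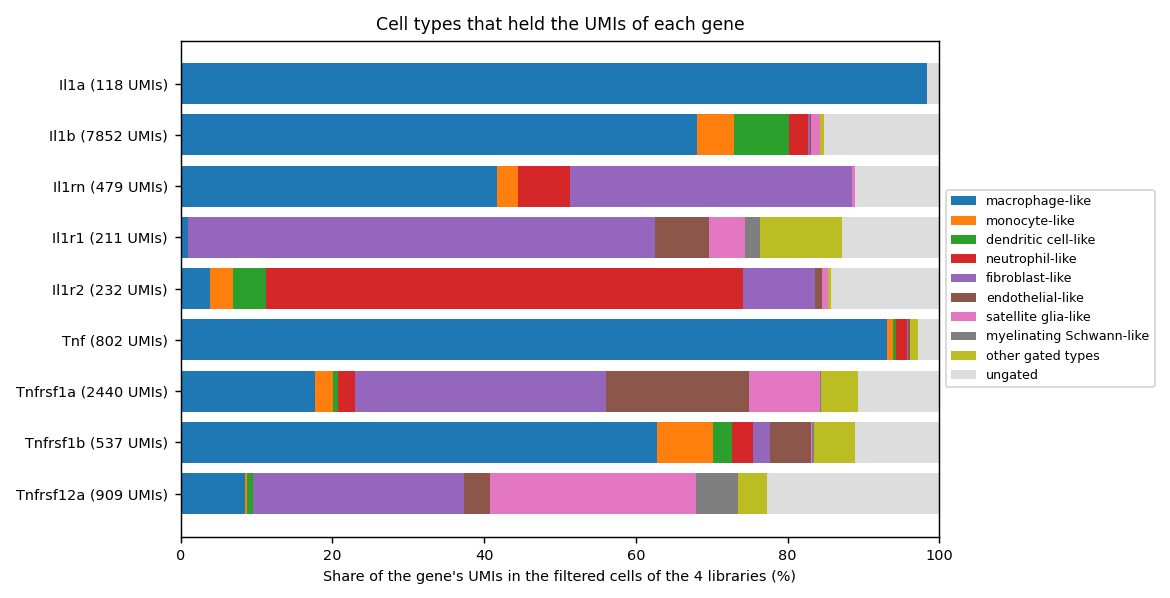
Share of each gene's UMIs in the filtered cells of the 4 libraries (horizontal axis, percent) by gated cell type (colours), with the gene and its total UMIs on the vertical axis. *Il1a* and *Tnf* come almost wholly from macrophage-like cells (98.3% and 93.1%), *Il1r1* mainly from fibroblast-like cells (61.6%) and *Il1r2* mainly from neutrophil-like cells (62.9%).

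The receptor and ligand genes were next tested for enrichment in each of 12 types against the mean of the other types, with library as a block. The edgeR quasi-likelihood test with Benjamini-Hochberg adjustment was used, at adjusted p under 0.05 and a fold over 4. That mean is taken over fitted log levels. Types with few or no UMIs of a gene lower it, so a fold over 4 is not 4 times the average CPM of the other types. *Il1a* and *Il1r1* did not pass the filter on low counts, which asks for enough UMIs in several of the sums, and 7 of the 9 genes were left. Of 84 gene and type pairs, 26 (31.0%) passed, against 11.3% of the 82020 pairs over all genes tested. The genes were chosen with earlier results of these data known. The filter on low counts also lets a gene enter through the type where it is high. The 2 shares therefore describe the pairs and are not a test of the group. Neutrophil-like cells passed for 6 of the 7 genes (10.1% of all genes tested passed there), that is for all but *Tnfrsf12a*. They numbered 37, 16, 18 and 21, and several of these genes had few UMIs there. *Il1b* and *Il1rn* had no UMI in control 2, *Tnfrsf1b* had none in control 2 or injury 2, and no cell held more than 3 *Tnf* UMIs. Monocyte-like cells passed for 5 (*Il1b*, *Il1rn*, *Il1r2*, *Tnfrsf1a* and *Tnfrsf1b*; 9.58% of all genes). Macrophage-like cells passed for 4 (*Il1b*, *Il1rn*, *Tnf* and *Tnfrsf1b*; 12.5% of all genes). Dendritic cell-like cells passed for 3 (*Il1b*, *Il1r2* and *Tnfrsf1b*; 9.22%), as did fibroblast-like cells (*Il1rn*, *Tnfrsf1a* and *Tnfrsf12a*; 14.4%). Endothelial-like cells passed for *Tnfrsf1a* and *Tnfrsf1b* (12.7%). *Tnfrsf12a* alone passed in myelinating Schwann-like (10.8%), satellite glia-like (13.1%) and smooth muscle-like cells (11.4%). In pericyte-like, erythroid-like and neuron-like cells 0 of the 7 genes passed, where 12.6%, 6.7% and 12.5% of all genes did. The erythroid-like and neuron-like sums came only from control 2 and injury 2. Neuron-like cells numbered 39 and 15 there, after the upper limits on UMIs and genes had removed 114 and 54 neuron-like barcodes. Both types leave the test when either library is left out, which also changes the reference mean.

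**Figure D2:**
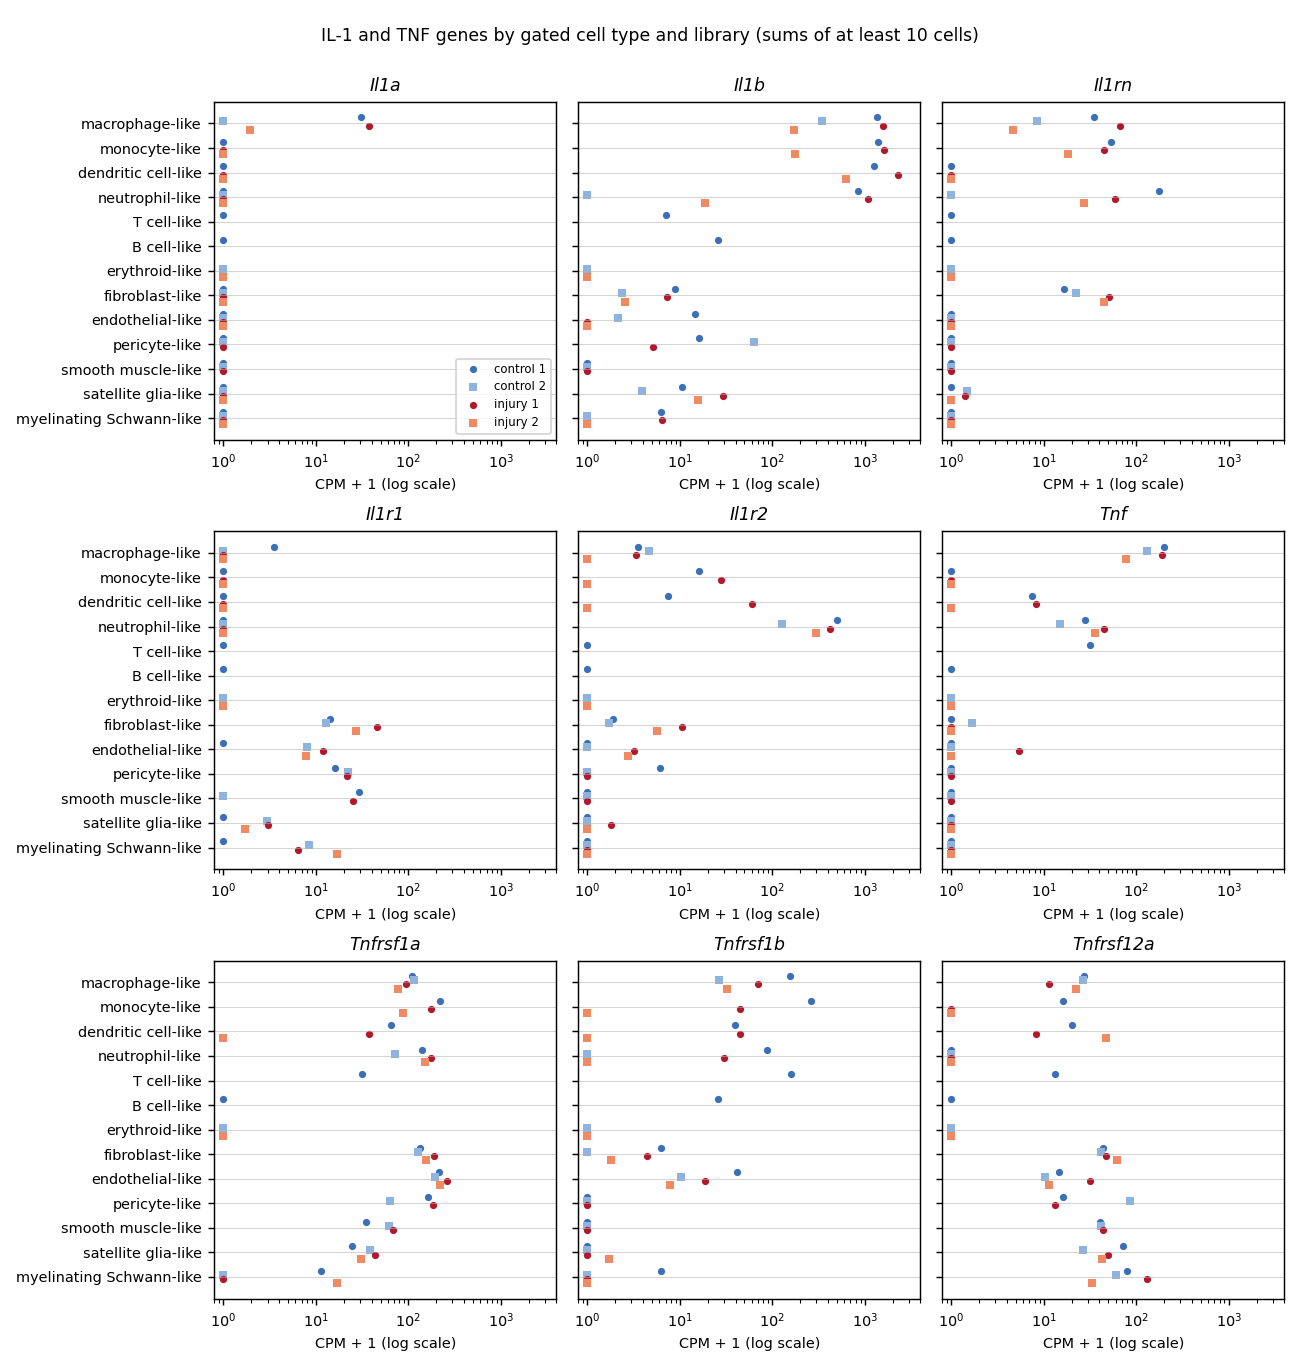
Level of each gene (CPM + 1, log axis) in each gated cell type (vertical axis), 1 panel a gene, with 1 point per library for sums of at least 10 cells (circles for libraries 1, squares for libraries 2, blue for control and red for injury). *Il1b* and *Tnf* reach 1585 and 199 CPM in macrophage-like cells, *Il1r2* 496 CPM in neutrophil-like cells and *Tnfrsf1a* 258 CPM in endothelial-like cells. The highest *Il1b* points are those of dendritic cell-like and monocyte-like cells in injury 1.

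*Il1b*, the ligand gene with the most UMIs, was at 1349, 346, 1585 and 170.5 CPM in macrophage-like cells. Both libraries numbered 1 were high and both numbered 2 were low, so the conditions overlapped entirely. The level in control 1 was 3.90 times that in control 2, and the level in injury 1 was 9.29 times that in injury 2. The control mean was 848 ± 709 CPM (SD, n = 2 libraries) and the injury mean 878 ± 1000 CPM (SD, n = 2), and the fitted log2 difference of injury minus control was -0.06 (SE 1.03, edgeR adjusted p = 0.999), opposite in sign to the difference of these means and small beside its error. At least 1 *Il1b* UMI was found in 41.2%, 32.0%, 53.4% and 26.6% of macrophage-like cells, and after drawing 1000 UMIs per cell the expected shares were 33.2%, 17.4%, 41.3% and 11.8%, the same order of libraries, while median depth was 2924, 3209, 4714 and 4857 UMIs. Pooled over libraries the share was 43.5% (exact 95% interval 40.4 to 46.6%) at a median of 4076 UMIs, against 1.72% in fibroblast-like cells at a median of 4088.5 UMIs, taken as the background of free RNA. All intervals here cover counting error only.

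Within the macrophage-like cells *Il1b* was concentrated in a minority. Cells with at least 5 *Il1b* UMIs numbered 65 of 245, 7 of 75, 188 of 481 and 11 of 199 (26.5%, 9.33%, 39.1% and 5.53%), and the tenth of cells with the most *Il1b* held 60.4%, 74.5%, 52.2% and 73.5% of its UMIs. The single largest cell had 52, 19, 100 and 19 UMIs. Macrophage-like cells are known to include resident cells marked by *Mrc1* (a mannose receptor) and *Cd163* (a haemoglobin scavenger receptor). Pooled over libraries, *Il1b* was at 1836 CPM in the 277 cells with no UMI of *Mrc1*, *Cd163* or the cycle genes *Mki67* and *Top2a*, 930 CPM in the 619 cells with *Mrc1* or *Cd163*, and 839 CPM in the 104 cycling cells. The first of these was the highest in every library (1706, 515, 2370 and 387 CPM, against 1202, 215, 1317 and 117 CPM in the cells with *Mrc1* or *Cd163*). *Tnf* was at 373, 163, 228 and 137 CPM in the cells with none of these genes and at 126, 97.1, 145 and 59.3 CPM in those with *Mrc1* or *Cd163*, the first again the higher in every library.

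*Il1a*, the ligand that many cells store and release as an alarm signal, had 24, 0, 91 and 1 UMIs in macrophage-like cells, or 29.8, 0, 36.2 and 0.922 CPM. It was detected in both libraries numbered 1 and barely or not at all in those numbered 2, where 3 UMIs, the limit that a count of 0 allows, would be 11.0 CPM in control 2. The fitted injury minus control log2 difference was -0.04 (SE 1.25, edgeR adjusted p = 0.999), although the CPM were the higher in the injury library of each number. *Il1a* was found more often in cells rich in *Il1b*: in injury 1 it had a UMI in 19.1% of macrophage-like cells with at least 5 *Il1b* UMIs and in 2.05% of the others, at median depths of 5946 and 3764 UMIs. In control 1 these shares were 13.8% and 1.11%, at 3889 and 2598 UMIs. The unequal depth of the cells moves with this difference, and its part was not tested.

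*Tnf* was at 199, 129, 187 and 76.5 CPM in macrophage-like cells. The libraries numbered 1 were again the higher in each condition and the conditions overlapped. The single largest cell had 37, 5, 26 and 10 *Tnf* UMIs. The tenth of cells with the most *Tnf* held 80.6%, 57.1%, 62.0% and 62.7% of its UMIs. Control libraries averaged 164 ± 49.6 CPM and injury libraries 132 ± 78.0 CPM (SD, n = 2 each), a log2 difference of -0.45 (SE 0.50, edgeR adjusted p = 0.859). The share of macrophage-like cells with a *Tnf* UMI was 22.9%, 30.7%, 34.9% and 25.6%, or 9.69%, 11.8%, 12.8% and 6.92% at 1000 UMIs per cell, and it did not follow the replicate number. In fibroblast-like cells 1 *Tnf* UMI was found in 1222 cells, a share of 0.0818% at nearly the same median depth. *Tnf* in neutrophil-like cells was at 26.8, 14.1, 43.6 and 35.0 CPM, and its enrichment there was lost with DESeq2.

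**Figure D3:**
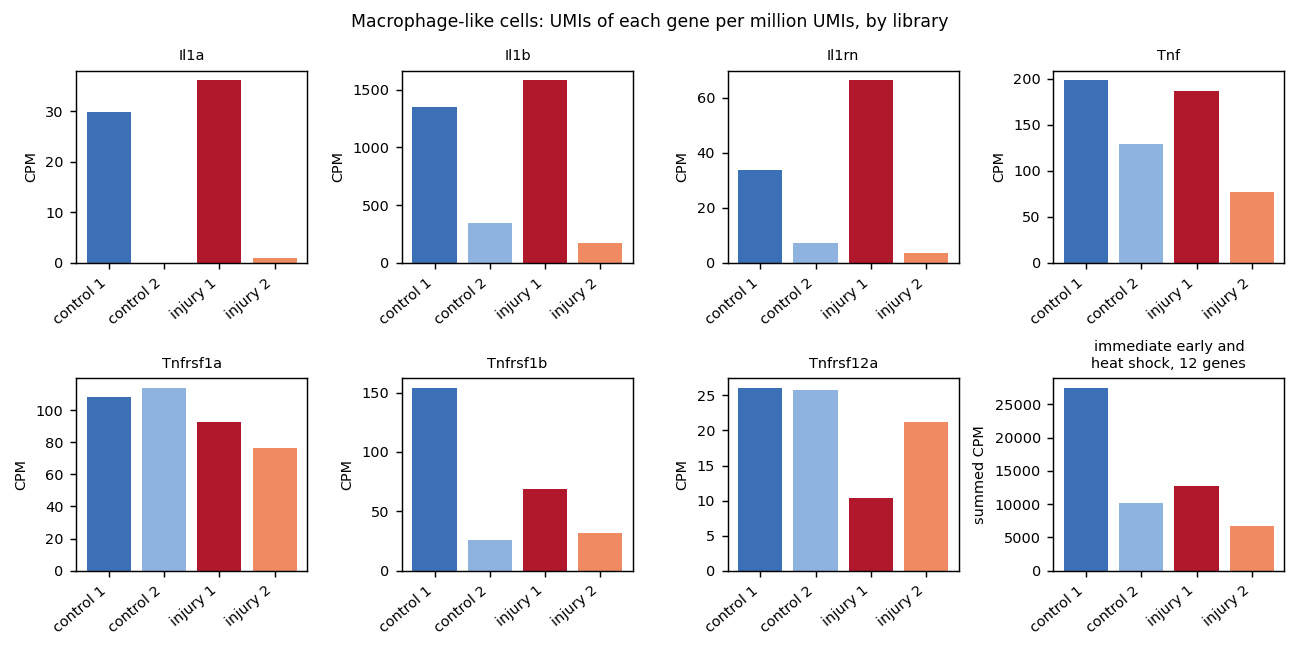
Levels in macrophage-like cells (vertical axes, CPM, from 0) in each library (horizontal axis), 1 panel for each of 7 genes and 1 for the summed level of 12 immediate early and heat shock genes. *Il1a*, *Il1b* and *Il1rn* are higher in control 1 than control 2 and in injury 1 than injury 2, and so is the sum of the immediate early and heat shock genes (27516 against 10245 and 12676 against 6759 CPM).

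In macrophage-like cells the summed levels of genes that respond to dissociation and to NF-κB were also higher in the library numbered 1 of each condition, though they were highest in control 1 and *Il1b* was highest in injury 1. The summed level of 12 immediate early and heat shock genes (*Fos*, *Egr1*, *Dusp1* and others), all detected in every library, was 27516, 10245, 12676 and 6759 CPM. The 14 NF-κB target genes (*Ccl2*, *Cxcl2*, *Icam1* and others) summed to 8326, 4222, 7484 and 3875 CPM, with 1 gene at 0 in each control library, and the 14 NF-κB factors and inhibitors to 2711, 1841, 2494 and 1587 CPM. Single genes departed from the sums: the heat shock gene *Hspa1b* was at 48.5, 77.3, 10.7 and 27.6 CPM and the adhesion gene *Vcam1* at 90.8, 155, 45.4 and 169.6 CPM, both lower in the library numbered 1. The part of these genes in the difference in *Il1b* between libraries was not tested, and handling of a library and the state of the cells in its animals cannot be told apart.

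Other myeloid cells carried *Il1b* too, with the library numbered 1 the higher of each condition, and the size of that difference was not compared between types. Dendritic cell-like cells, led by the gate marker *Xcr1*, numbered 20, 9, 26 and 13. They had 1268 and 611 CPM in the control libraries and 2277 and 619 CPM in the injury libraries. These levels rested on few cells: the 2, 1, 3 and 2 cells with the most *Il1b* held 49.0%, 82.6%, 63.7% and 90.0% of its UMIs. Monocyte-like cells had 1399, 74.6, 1601 and 173 CPM, in 32, 7, 27 and 11 cells. Here the 4, 1, 3 and 2 cells with the most *Il1b* held 81.2%, 50.0%, 58.0% and 50.0% of its UMIs. Neutrophil-like cells had 845, 0, 1075 and 17.5 CPM, and the log2 difference of injury minus control was 0.21 (SE 1.89, edgeR adjusted p = 0.995).

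Satellite glia-like cells, the glia that wrap the neuron cell bodies, gave a high *Il1b* fold that rested on few cells. They had 2, 6, 69 and 21 UMIs (9.42, 2.94, 28.1 and 14.7 CPM), and both injury libraries lay above both control libraries. With 2 libraries per condition this order can arise without an effect of injury. The share of all genes with it, here and below, is not given. The *Il1b* UMIs came from 2, 2, 12 and 4 cells, of which 1 cell held 58 in injury 1 and 1 held 18 in injury 2. Cells that also had a UMI of a macrophage marker held 59 of the 69 and 20 of the 21 UMIs of the injury libraries. The 8 macrophage markers summed to 47.1, 47.5, 55.8 and 143 CPM in satellite glia-like cells. The log2 difference was 2.53 (SE 0.62) and did not pass the test (edgeR adjusted p = 1.00), and without the filter on low counts it passed (adjusted p = 0.0101). With Leiden clusters in place of the gate the difference was 0.68 (SE 1.08), and without control 2 it was 1.39 (SE 0.94).

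The antagonist gene *Il1rn* was found in fibroblast-like and in macrophage-like cells, and the order of the libraries was not the same in both. In fibroblast-like cells it was at 15.7, 21.5, 50.1 and 43.9 CPM (18, 31, 73 and 56 UMIs), so both injury libraries lay above both control libraries. The means were 18.6 ± 4.11 CPM and 47.0 ± 4.40 CPM (SD, n = 2 each), a log2 difference of 1.39 (SE 0.29) that did not pass the test over all genes (edgeR adjusted p = 0.999). Without control 2 the log2 difference was 1.63, with control 1 as the only control library. The share of fibroblast-like cells with a UMI was 3.56%, 2.83%, 9.26% and 7.58%, or 1.35%, 1.38%, 3.77% and 2.99% at 1000 UMIs per cell. Satellite glia-like cells had 2 *Il1rn* UMIs in 1435 cells, a share of 0.139% at a median of 3894 UMIs. In macrophage-like cells *Il1rn* was at 33.6, 7.36, 66.5 and 3.69 CPM, with the libraries numbered 1 high and the conditions overlapping (log2 difference 0.52, SE 1.13, edgeR adjusted p = 0.947). Neutrophil-like cells had 174, 0, 58.1 and 26.3 CPM.

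*Il1r1*, the signalling receptor, was mainly a gene of fibroblast-like cells. It was at 13.1, 11.8, 44.6 and 25.9 CPM there (15, 17, 65 and 33 UMIs), and both injury libraries lay above both control libraries. The control mean was 12.4 ± 0.910 CPM and the injury mean 35.2 ± 13.3 CPM (SD, n = 2 each), a log2 difference of 1.58 (SE 0.40, edgeR adjusted p = 0.999). That difference missed the threshold with all libraries. Without control 1 it was 1.70, with control 2 as the only control library. A UMI was found in 4.63%, 4.53%, 16.7% and 11.0% of fibroblast-like cells, or 1.23%, 1.22%, 4.06% and 2.62% at 1000 UMIs per cell, the median depth being 3789, 3757, 4219 and 4474 UMIs. In macrophage-like cells, which have a pooled median of 4076 UMIs, 1 of 1000 cells had *Il1r1* UMIs. Cells with a UMI of *Pi16* or *Dpp4*, markers of adventitial fibroblasts, had 5.02, 3.09, 15.9 and 3.71 CPM, and the remaining fibroblast-like cells 14.8, 14.3, 50.6 and 31.8 CPM. Endothelial-like cells had 0, 6.97, 11.0 and 6.87 CPM.

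The decoy receptor gene *Il1r2* was concentrated in neutrophil-like cells, at 496, 127, 421 and 298 CPM (74, 9, 29 and 34 UMIs). Control 2, with 16 such cells, was the lowest and control 1 the highest, so the injury libraries lay between the control libraries. The means were 311 ± 261 CPM and 359 ± 87.3 CPM (SD, n = 2 each), with a log2 difference of 0.10 (SE 0.68, edgeR adjusted p = 0.995). A UMI was found in 73.9% of the 92 neutrophil-like cells against 0.600% of macrophage-like cells, at median depths of 4049 and 4076 UMIs. The precursor granule genes *Ltf*, *Ngp* and *Camp* were found in 87 of these cells. Because these genes are themselves gate markers, the gate favours cells that have them. The count of 87 therefore does not measure how mature the neutrophils of the ganglion are. The other 5 cells, all from control 1, had *Il1r2* at 1656 CPM and *Il1b* at 3312 CPM, from 13 and 26 UMIs. In dendritic cell-like cells *Il1r2* was at 6.47, 26.6, 58.6 and 0 CPM, and without injury 1 it was no longer enriched there. Its enrichment in monocyte-like cells (adjusted p = 0.0464) was retained in 2 of 11 alternatives. In fibroblast-like cells *Il1r2* had 1, 1, 14 and 6 UMIs (0.872, 0.694, 9.61 and 4.70 CPM), too few for the test.

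*Tnfrsf1a*, which encodes TNFR1, had a broad distribution with close libraries. In endothelial-like cells it was at 211, 195, 258 and 218 CPM, with means of 203 ± 11.6 CPM in control and 238 ± 28.0 CPM in injury (SD, n = 2 each). The injury libraries were the higher, by a log2 difference of 0.32 (SE 0.24, edgeR adjusted p = 1.00). In fibroblast-like cells it was at 132, 126, 190.1 and 154 CPM, again with both injury libraries above both control libraries (log2 difference 0.49, SE 0.24, adjusted p = 0.999). Macrophage-like cells had 108, 114, 92.8 and 76.5 CPM, the opposite order of conditions (log2 difference -0.52, SE 0.26, adjusted p = 0.665), and the difference between the types was not tested. Neutrophil-like cells had 141, 70.3, 174 and 149 CPM, satellite glia-like cells 23.6, 37.7, 42.8 and 29.4 CPM and myelinating Schwann-like cells 10.4, 0, 0 and 15.9 CPM. Cells with a UMI made up 60.9% of endothelial-like and 1.83% of myelinating Schwann-like cells, at median depths of 4325 and 2224.5 UMIs, or 19.6% and 0.563% at 1000 UMIs per cell. The enrichment in endothelial-like, fibroblast-like, neutrophil-like and monocyte-like cells was lost without control 2 and without injury 2, fits that lack neuron-like and erythroid-like cells. With DESeq2 it was also lost in fibroblast-like and monocyte-like cells, and with Leiden clusters in monocyte-like cells.

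*Tnfrsf1b*, which encodes TNFR2, was at 154, 25.8, 68.5 and 31.3 CPM in macrophage-like cells. Control 1 stood highest and control 2 lowest, so the injury libraries lay between them. The means were 90.0 ± 90.8 CPM and 49.9 ± 26.3 CPM (SD, n = 2 each), a log2 difference of -1.10 (SE 0.71, edgeR adjusted p = 0.729). It was -1.74 without control 2 and 0.98 without control 1, each time with 1 control library left. Monocyte-like cells had 263, 0, 44.2 and 0 CPM, and endothelial-like cells 40.5, 9.29, 17.6 and 6.87 CPM, again highest in control 1. Enrichment in endothelial-like cells was lost without control 2, with DESeq2 and without the library block, and in dendritic cell-like cells without injury 1. The 53 T cell-like cells of control 1 had 158 CPM. A *Tnfrsf1b* UMI was found in 26.6% of macrophage-like cells and in 0.0697% of satellite glia-like cells, at medians of 4076 and 3894 UMIs.

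*Tnfrsf12a*, the TWEAK receptor gene known to be induced in growing and injured tissue, was found mainly in glia and connective tissue. Myelinating Schwann-like cells had 78.1, 59.1, 131 and 31.9 CPM, with the conditions overlapping (log2 difference 0.27, SE 0.62, edgeR adjusted p = 1.00). Fibroblast-like cells had 42.7, 40.9, 46.0 and 61.1 CPM, with both injury libraries above both control libraries (log2 difference 0.41, SE 0.24, adjusted p = 0.999). Satellite glia-like cells had 70.7, 25.5, 48.9 and 41.3 CPM, with control 1 the highest and control 2 the lowest. Its enrichment in fibroblast-like and satellite glia-like cells was lost without control 2, without injury 2 and without the filter on cells, and in satellite glia-like cells also with DESeq2. In smooth muscle-like cells it was lost without any 1 of the libraries, with DESeq2, with Leiden clusters and without the filter on cells. The fits without control 2 or without injury 2 also lack neuron-like and erythroid-like cells. Macrophage-like cells had 26.1, 25.8, 10.4 and 21.2 CPM (log2 difference -0.96, SE 0.43, adjusted p = 0.632), and in 92 neutrophil-like cells no UMI was found, which allows a share of cells with a UMI of up to 3.26% and does not limit the share that express the gene. In the 67 ungated cells with at least 2 UMIs of *Scn7a*, a sodium channel gene of non-myelinating glia, it was at 72.9 CPM.

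Sensory neurons are large and the upper limits on UMIs and genes removed 215 of them, so neuron-like barcodes were examined without those limits (23, 153, 30 and 69 cells, with medians of 32511, 19098, 32248 and 28029 UMIs). There *Tnfrsf12a* was at 3.72, 4.70, 59.8 and 33.5 CPM, from 3, 16, 80 and 79 UMIs. Both injury libraries lay well above both control libraries, with means of 46.7 ± 18.7 CPM and 4.21 ± 0.690 CPM (SD, n = 2 each). The log2 difference was 3.51 (SE 0.46) and missed the threshold over 9956 genes (edgeR adjusted p = 0.154), whereas DESeq2 called it (adjusted p = 6.2e-05). Without injury 2 the log2 difference was 3.93, with injury 1 as the only injury library. A UMI was found in 8.70%, 7.84%, 53.3% and 15.9% of these cells, or 0.511%, 0.376%, 5.85% and 2.11% at 1000 UMIs per cell. *Sprr1a*, a gene induced in injured sensory neurons, had a UMI in 19 neuron-like cells of injury 1, 15 of injury 2 and 1 of control 2. In injury 1 *Tnfrsf12a* was found in 68.4% of the 19 cells with *Sprr1a* (70.9 CPM) and in 27.3% of the 11 cells without (30.3 CPM), at median depths of 38701 and 31824 UMIs. In injury 2 it was found in 60.0% of the 15 cells with *Sprr1a* (116 CPM) and in 3.70% of the 54 cells without (1.76 CPM), at 41639 and 27719 UMIs. This split was chosen after values had been seen and was not tested.

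*Il1r1* in neuron-like cells was at 0, 1.47, 7.48 and 5.93 CPM (0, 5, 10 and 14 UMIs). The injury libraries were the higher, by a log2 difference of 2.62 (SE 0.78, edgeR adjusted p = 0.513), and a UMI was found in 36.8% of the cells with *Sprr1a* and 0% of those without in injury 1, and in 46.7% and 3.70% in injury 2. *Tnfrsf1a* was at 7.44, 6.75, 8.23 and 4.24 CPM, with overlapping conditions (log2 difference -0.10, SE 0.54, adjusted p = 0.973). *Il1b* was at 6.20, 0.587, 12.7 and 0.847 CPM in neuron-like cells (adjusted p = 0.767), the libraries numbered 1 being high as they were in macrophage-like cells. These were 5, 2, 17 and 2 UMIs, and 1 cell of injury 1 held 12. Barcodes that also had a UMI of a macrophage marker held 5, 0, 13 and 2 of them. Whether this *Il1b* RNA came from the neurons was not tested. Of the 4 genes tested in neuron-like cells 0 were called by edgeR, where 0.0201% of all genes were, 2 had an unadjusted p under 0.05, and DESeq2 called *Tnfrsf12a*. Over all genes tested there, 836 of 9956 had such a p by edgeR, and DESeq2 called 88.

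**Figure D4:**
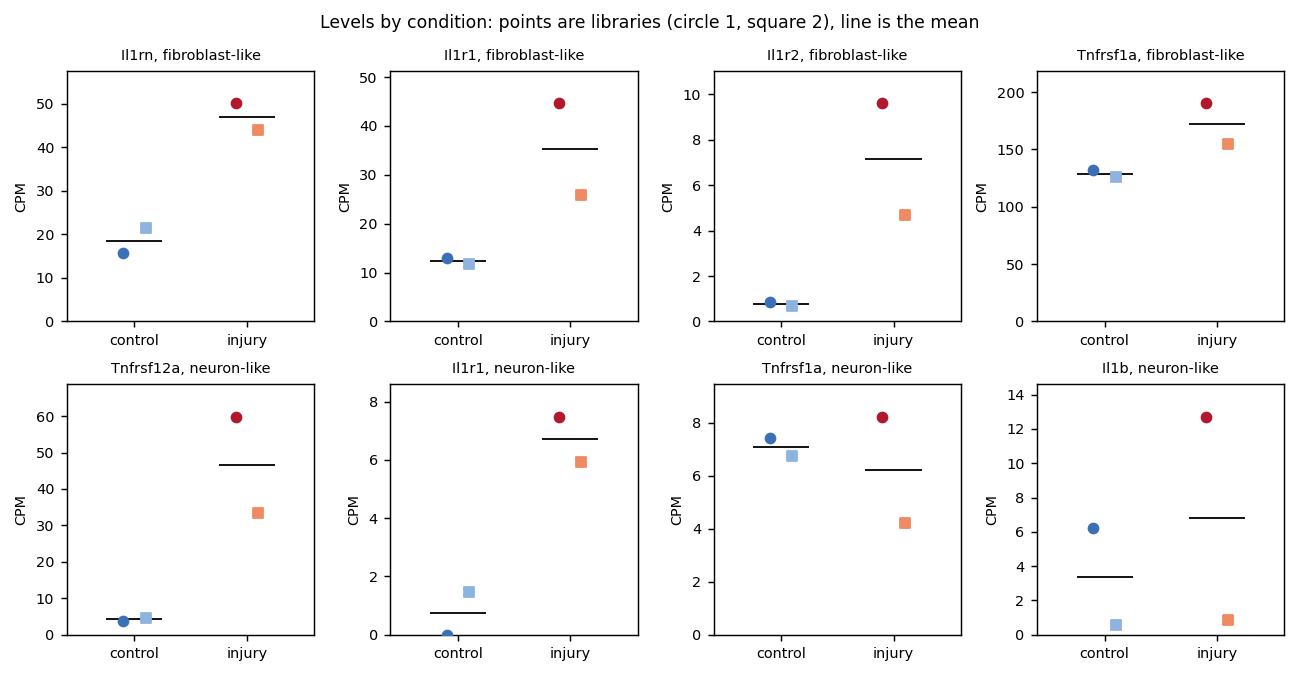
Levels (vertical axes, CPM, from 0) by condition (horizontal axis) in fibroblast-like cells (upper panels) and neuron-like cells without upper limits (lower panels). Points are libraries and the line is the mean of 2 libraries. *Il1rn*, *Il1r1*, *Il1r2* and *Tnfrsf1a* in fibroblast-like cells and *Tnfrsf12a* and *Il1r1* in neuron-like cells have both injury libraries above both control libraries. *Il1r2* in fibroblast-like cells was not tested, and the others were not called by the edgeR test. In the panels of *Tnfrsf1a* and *Il1b* in neuron-like cells the conditions overlap. The panels were picked from the genes and types, and with 2 libraries per condition this order can arise without an effect of injury. The share of all genes with this order of libraries is not given.

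Over the whole ganglion no gene of the group was called after injury. In sums over all cells *Il1b* was at 451, 41.5, 576 and 68.6 CPM and *Tnf* at 41.2, 8.42, 52.7 and 15.7 CPM, following the replicate number, whereas *Tnfrsf1a* was at 99.9, 87.9, 101 and 93.2 CPM. All 9 genes were tested and 0 were called (0% of all genes tested), with 0 at an unadjusted p under 0.05, and DESeq2 called 0 of them too. In these sums fewer cells of a type and less RNA per cell cannot be told apart. Within the 6 gated types with at least 10 cells in every library, 19 tests of these genes gave 0 calls by edgeR and 0 by DESeq2, and 3 had an unadjusted p under 0.05 (*Il1r1* and *Il1rn* in fibroblast-like cells and *Il1b* in satellite glia-like cells). Over all genes tested, 171 of 8943 had such a p in fibroblast-like, 97 of 9003 in satellite glia-like and 585 of 7034 in macrophage-like cells. In endothelial-like, myelinating Schwann-like and neutrophil-like cells 98 of 6015, 47 of 2437 and 5 of 918 did. The share of all genes called was 0.0112% in fibroblast-like cells and 0% in macrophage-like, endothelial-like, satellite glia-like, myelinating Schwann-like and neutrophil-like cells. The p-values set a difference against the spread between libraries, of which each condition has 2. Both edgeR and DESeq2 estimate that spread partly from the other genes tested.

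The pathway around these genes was likewise without calls. Of 79 listed genes of IL-1 family signalling, TNF receptor signalling, NF-κB factors, NF-κB targets and the immediate early and heat shock response, 76 were tested over all cells and 245 tests were made in gated types, with 0 calls by edgeR. In gated types 14 had an unadjusted p under 0.05 (5 higher and 9 lower after injury) and DESeq2 called *Hspa1a*, a heat shock gene, in macrophage-like cells, and over all cells 0 did by either measure. Of the 14, 8 were among the 63 tests in macrophage-like cells, all lower after injury. There 585 of all 7034 genes had such a p. In neuron-like cells 37 were tested with 0 calls by edgeR, 2 at an unadjusted p under 0.05 (836 of all 9956 genes tested there), and DESeq2 called *Ccl2*, a chemokine gene. The median log2 difference of the immediate early and heat shock genes was -0.35 over all cells (0 of 12 positive), -1.02 in macrophage-like (0 of 12) and -0.38 in fibroblast-like cells (0 of 11), where medians over all genes were -0.02, -0.01 and -0.01. It was 0.11 in endothelial-like (8 of 11 positive), -0.02 in neutrophil-like (3 of 7) and -0.30 in myelinating Schwann-like cells (2 of 11). Satellite glia-like cells had -0.52 (1 of 12) and neuron-like cells -0.44 (2 of 12). In macrophage-like cells the summed levels of the conditions overlapped, with 10245 CPM in control 2 and 12676 CPM in injury 1. Over all cells these genes summed to 21129, 6641, 13179 and 7126 CPM. The sums were 23417, 8040, 14363 and 8321 CPM in fibroblast-like cells and 16105, 3137, 7831 and 3950 CPM in satellite glia-like cells. In each of these sums control 1 was the highest and control 2 the lowest, so the conditions overlapped there too. The NF-κB targets had medians of 0.21 over all cells (10 of 14 positive), 0.42 in fibroblast-like cells (10 of 12) and -0.27 in macrophage-like cells (2 of 11). IL-1 family signalling genes had medians of -0.10 over all cells (7 of 19 positive) and 0.06 in fibroblast-like cells (8 of 14). TNF receptor signalling genes had medians of 0.07 (9 of 17) and -0.12 (5 of 11) in the same sums, and the NF-κB factors 0.01 (8 of 14) and 0.10 (8 of 12). In macrophage-like cells the medians were -0.04 for IL-1 family signalling (6 of 13 positive), -0.09 for TNF receptor signalling (4 of 14) and -0.29 for the NF-κB factors (2 of 13).

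For each gene, the genes with the most similar levels over the 15 gated types were listed by Pearson's r of log2(CPM + 10), as a description without a test, since the types share their libraries. *Il1b* was most like *Alox5ap* (r = 0.977), *Themis2* (0.975) and *Wfdc17* (0.974), and *Tnfrsf1b* most like *Ptpn18* (0.941), *Bin2* (0.939) and *Slfn2* (0.935). *Il1r2* was most like *A530064D06Rik* (0.991), *Mapk13* (0.982) and *Dhrs9* (0.971). *Il1rn* was nearest to *C3* (0.909), *Pilra* (0.869) and *Pilrb1* (0.863), and *Il1r1* to *Fam20a* (0.944), *Tgfb3* (0.926) and *Igfbp5* (0.922). *Tnf* was nearest to *Pnpla7* (0.912), *Cd300ld* (0.863) and *Gpr34* (0.861), *Tnfrsf1a* to *Il15* (0.872), *Ifitm2* (0.868) and *Ifitm3* (0.865), and *Tnfrsf12a* to *Socs3* (0.880) and *Npepl1* (0.878). *Il1a*, with at most 16.7 CPM in any type as a mean of libraries, is not ranked.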

How the data were processed

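Single cells of mouse DRG were measured in 4 libraries, 2 per condition, with the 10x Genomics 3' assay. The authors deposited raw UMI counts per gene and barcode, made with Cell Ranger on mm10 per the submitters' processing notes, which also name Partek; how reads of overlapping genes were counted is not given in the sources used here. Filters took the limits of the methods, which word the first and last as reads, and applied them to UMIs: between 600 and 15000 UMIs and 500 and 4000 genes, mitochondrial UMIs under 10%. The number of cells kept here differs from the study's. A cell was gated to a type when it had UMIs for at least 3 of 8 markers and at least 2 more than of any other type; 668 cells lay at the edge of the gate. Naming 21 Leiden clusters by their main gated type gave the same type for 96.0% of gated cells. No doublet caller was run; the gate leaves barcodes of mixed markers ungated (473 for a lead under 2). UMIs were summed per library and type and fitted by edgeR 4.0.16 (TMM, filterByExpr, quasi-likelihood test, Benjamini-Hochberg adjustment over all genes tested, called at adjusted p under 0.05). The fit was run on simulated counts with a fixed dispersion and no effect of library or replicate. That run does not measure how the fit handles such effects. DESeq2 1.42.0 was an alternative. Software was R 4.3.3 and Python 3.11.15. The shares at 1000 UMIs are expected values per cell, shallower cells left out. The genes and lists were chosen with earlier results of these data known. Named genes were the 9 genes, listed genes called by the test (none were), and the 3 most similar genes of each over types, among genes with at least 20 CPM in a type; 1 of these is not reported here. Other listed genes are examples, *Hspa1a*, *Hspa1b*, *Vcam1* and *Ccl2* being named after their values were seen. The replicate numbers were treated as names only.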

Additional observations from a re-analysis of the deposited data

Results flagged for a closer look

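*Tnfrsf12a* was flagged in barcodes that no comparison above uses. They were removed by the filters on cells and are not among the neuron-like barcodes examined without upper limits. These numbered 64, 333, 104 and 164 in control 1, control 2, injury 1 and injury 2. They held 8, 33, 76 and 63 *Tnfrsf12a* UMIs, or 15.5, 16.7, 106 and 43.2 CPM. All 9 genes were screened in these barcodes. A gene was flagged when both injury libraries had at least 3 UMIs and lay above both control libraries. That order was therefore the rule of selection and not a result. The difference was not tested.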

How the results depend on the processing

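The direction of *Il1rn* and *Il1r1* in fibroblast-like cells (log2 1.23 to 1.63 and 1.06 to 1.98 over 11 alternatives each), of *Il1b* in satellite glia-like cells (0.68 with Leiden clusters to 2.87 without control 1) and of *Tnfrsf12a* and *Il1r1* in neuron-like cells (2.99 to 3.93 and 2.29 to 6.36 over 8) was kept, and *Tnfrsf12a* there was also called without the filter on low counts (adjusted p = 3.55e-13). In macrophage-like cells the direction was not: without the filter on low counts *Il1b* was at 0.033, and leaving out 1 library gave -2.61 (without injury 1) to 1.38 (without control 1) for *Il1b*, -1.38 (without injury 1) to 0.11 (without injury 2) for *Tnf* and -1.93 (without injury 1) to 0.98 (without control 1) for *Tnfrsf1b*. *Il1r2* in neutrophil-like cells was at -0.011 without that filter, -0.067 with a gate lead of 1, -0.45 with Leiden clusters and -0.53 (without control 2) to 1.38 (without control 1) with 1 library left out. Counts of genes called over all cells were 0, 6 with DESeq2 and 0 to 25 (without control 2) with a library left out. Within gated types 1 gene was called, against 2 with DESeq2 size factors in edgeR, 29 with DESeq2, 249 without the filter on low counts, 0 without the filter on cells, 2 with a gate lead of 1, 0 with Leiden clusters and 29 (without injury 1) to 591 (without control 2) with a library left out. The genes described here gave 0 calls in gated types and 1 without the filter on low counts. Their calls with a library left out are not given, since 1 condition then has 1 library and more genes of any kind were called. Enriched pairs numbered 26, 19 to 31 in the other alternatives and 17 to 19 with a library left out, where fewer pairs were tested. In neuron-like cells 2 genes were called, against 1 with DESeq2 size factors in edgeR, 88 with DESeq2, 461 without the filter on low counts and 0 (without control 2) to 244 (without injury 2) with a library left out. The neuron fit with the upper limits was not run, since 2 libraries had under 10 such cells. The causes were not tested.

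With the replicate number as a block, 107 genes were called within gated types and 4 in neuron-like cells, and no call of the genes described here was gained or lost. Deviations of same-numbered libraries correlated at 0.232 to 0.561 over genes, and the study describes independent experiments of pooled mice, but no source used here says which control and injury libraries shared an experiment, so the pairing rests on the number alone. The filter on low counts kept *Il1a* and *Il1r1* out of the enrichment test and *Il1r2* out of the fibroblast-like test. The parts of depth, level and spread over cell types in this were not tested.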
